A study of Mus musculus with 2 samples.

Results

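The genes described here were *Clec9a*, *Wdfy4*, *Cadm1*, *Xcr1*, *Naaa*, *Rab7b*, *Rab43*, *Cd8a*, *Cd36* and *Clnk*, 10 of the 32285 genes measured. They were chosen by symbol as genes by which type 1 conventional dendritic cells (cDC1) are known or which serve them in taking up and cross-presenting antigen, and all 10 were found in the data. Their unique molecular identifiers (UMIs, one per captured transcript) were counted by scRNA-seq in live CD45.2+ CD11c+ cells sorted from spleen. The WT library was made from 3 pooled female C57BL/6J mice of genotype *H2-Aa* +/+, and the other from 3 pooled female mice homozygous for *citation* (*cit*), an *H2-Aa* allele induced by N-ethyl-N-nitrosourea. The labels give both groups as naive mice aged 4 months, and neither group was treated. *H2-Aa* encodes the α chain of an MHC class II molecule, and its loss in this model is germline, so it affects every cell of the mouse and not DC alone. This library is called the mutant library below, and its cells mutant cells. With 1 library per genotype no spread between mice could be had, so no test was run, and the 95% intervals in brackets cover counting error only.

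DC take up antigen, carry it to lymphoid tissue and show its peptides to T cells. cDC1 are the DC best known for cross-presentation, in which peptides of engulfed material are loaded on MHC class I for CD8+ T cells, and in mouse spleen they carry CD8α, XCR1 and the receptor DNGR-1. On maturation DC migrate by CCR7, raise costimulatory molecules and take up less antigen. *Clec9a* encodes DNGR-1, which binds actin exposed on dead cells, and *Cd36* a scavenger receptor for lipids and apoptotic cells. *Xcr1* encodes the receptor for XCL1, a chemokine of NK and activated CD8+ T cells, *Cadm1* an adhesion molecule that binds CRTAM on activated T and NK cells, and *Cd8a* the CD8 α chain. *Wdfy4* encodes a BEACH domain protein needed for cross-presentation of cell-associated antigen. *Rab43* and *Rab7b* encode small GTPases of vesicle traffic, *Naaa* a lysosomal amidase that hydrolyzes N-acylethanolamines, and *Clnk* an adaptor of the SLP-76 family in immunoreceptor signaling.

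On GRCm38 with GENCODE vM21, all 10 are protein-coding genes. Those for surface proteins lay on chromosome 6 for *Clec9a* (129408862 to 129424763, plus strand) and *Cd8a* (71373427 to 71379173, plus), on chromosome 9 for *Xcr1* (123852315 to 123862029, minus) and *Cadm1* (47530173 to 47857637, plus), and on chromosome 5 for *Cd36* (17781690 to 17888801, minus). *Wdfy4* lay on chromosome 14 (32959547 to 33185508, minus), *Rab43* on chromosome 6 (87788853 to 87812164, minus), *Rab7b* on chromosome 1 (131688695 to 131715439, plus), and *Naaa* (92257659 to 92278170, minus) and *Clnk* (38706462 to 38876812, minus) on chromosome 5. *Clec9a* overlaps *Clec1b* and *Gm43914*, a transcript annotated within its intron, on the same strand, and these had 664 and 2722 UMIs in both libraries against 10897 of *Clec9a*. *Wdfy4* overlaps *Lrrc18* on the opposite strand, with 3487 UMIs against 142963. *Clnk* overlaps *Clnkos*, also on the opposite strand, with 20 UMIs against 2574. *Rab43* overlaps 3 genes on its own strand, among them the protein-coding *Gm45140*, and *Cadm1* overlaps *Gm47198*. These same-strand neighbors were not among the genes measured. *Xcr1*, *Naaa*, *Rab7b*, *Cd8a* and *Cd36* overlapped no annotated gene. Reads of *Clec9a*, *Cadm1* and *Rab43* may be shared with a same-strand neighbor, which was not tested.

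Promoter windows of RefSeq (GRCm38.p6) were matched for 8 of the 10 symbols, and there was no entry for *Cadm1* and *Rab7b*. The 250 bases before the start are shown for *Xcr1*, *Naaa*, *Rab43* and *Wdfy4*. *Xcr1* and *Naaa* were far lower in mature cells and in cDC2-like cells than in resting cDC1-like cells. Transcripts of *Rab43* and *Wdfy4* were found across DC classes. Each sequence is written 5′ to 3′ on the strand of the gene, with the ETS type motif GGAAGT or its reverse complement ACTTCC in capitals.
Xcr1, chr9:123862030-123862279, minus strand: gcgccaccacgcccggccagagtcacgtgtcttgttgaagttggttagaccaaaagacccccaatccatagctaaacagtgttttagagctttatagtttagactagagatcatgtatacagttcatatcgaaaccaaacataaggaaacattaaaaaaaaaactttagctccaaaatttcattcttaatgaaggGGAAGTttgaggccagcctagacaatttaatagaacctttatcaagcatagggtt
Naaa, chr5:92278182-92278431, minus strand: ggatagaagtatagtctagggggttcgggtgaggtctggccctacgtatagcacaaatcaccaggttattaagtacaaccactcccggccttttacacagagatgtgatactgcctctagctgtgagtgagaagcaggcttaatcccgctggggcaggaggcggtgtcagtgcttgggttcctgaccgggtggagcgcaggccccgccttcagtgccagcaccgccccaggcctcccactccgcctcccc
Rab43, chr6:87812165-87812414, minus strand: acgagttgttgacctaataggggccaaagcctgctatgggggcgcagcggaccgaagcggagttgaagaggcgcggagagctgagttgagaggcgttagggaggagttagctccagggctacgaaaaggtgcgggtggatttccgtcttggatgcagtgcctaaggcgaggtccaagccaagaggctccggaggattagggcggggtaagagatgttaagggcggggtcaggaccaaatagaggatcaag
Wdfy4, chr14:33185067-33185316, minus strand: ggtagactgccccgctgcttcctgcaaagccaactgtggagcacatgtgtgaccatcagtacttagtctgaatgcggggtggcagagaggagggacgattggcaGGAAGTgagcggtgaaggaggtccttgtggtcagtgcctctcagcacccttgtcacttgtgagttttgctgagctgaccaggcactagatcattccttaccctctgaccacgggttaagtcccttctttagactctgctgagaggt
GGAAGT on either strand was found in 4 of 11 member windows (*Rab43* has 4 starts), those of *Wdfy4*, *Xcr1*, *Cd36* and *Clnk*, against 19.7% of all 32851 windows of 250 bases. It began 55 bases before the *Xcr1* start and 146 before that of *Wdfy4*. The starts are those of RefSeq. The windows of *Wdfy4* and *Cd36* lay inside the GENCODE gene spans given above, and that of *Clnk* lay partly inside. The AP-1 type motif TGANTCA was in 0 of 11 windows and in 6.75% of all, and the interferon response type, GAAA followed after 2 bases by GAAA, in 0 of 11 and 2.98%. The E-box CANNTG, which is its own reverse complement, was in 7 of 11 against 66.2%. These are matches of letters in a short window and not binding sites, and windows without a match say only that those letters are not there.

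The WT library held 7814 cells with a median of 5492 UMIs, and the mutant library 11525 cells with a median of 5633. The libraries shared 31 cell barcodes. *H2-Aa* stood at 5410 counts in a total scaled to 1000000 UMIs (CPM) over all WT cells and at 66.2 CPM over all mutant cells, so it followed the labelled genotypes. *Ptprc*, which encodes CD45, and *Itgax*, which encodes CD11c, were found in both libraries at 1906 and 2020 CPM and at 199 and 224 CPM. Cells were placed in classes by scores over lists of marker genes that held none of the 10 members, so the classes were not defined by the genes described. The limits of the classes were set with member values in view.

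Resting cDC1-like cells, with a high score for 18 other cDC1 genes, a low maturation score and 8 to 30% of UMIs from ribosomal protein genes, numbered 313 in WT (4.01% of cells) and 594 in the mutant (5.15%). Resting cells of the same scores with more ribosomal UMIs numbered 226 (2.89%) and 39 (0.338%), and with fewer 57 (0.73%) and 41 (0.356%), and both were kept apart. With both put back, resting cells numbered 596 of 7814 in WT and 674 of 11525 in the mutant, a smaller share in the mutant. Of these, 161 in WT and 39 in the mutant had a cDC1 score below 0.6, close to the limit of 0.45. The shares without them were not compared. Mature cells had a high score for 14 genes such as *Ccr7* and *Fscn1*. Their cDC1 score was at most 0.3, against above 0.45 in resting cells. They were divided by whether the cDC1 score exceeded the score for 16 cDC2 genes by a set margin. Those in which it did are called mature cells with cDC1 genes, 329 in WT (4.21%, interval 3.78 to 4.68%) and 20 in the mutant (0.174%, 0.106 to 0.268%). The mature cells without numbered 1372 and 1049. The cDC2-like cells were those that no other gate took. No cDC2 score was required of them, and no gate for B cells was set. In this class the 16 cDC2 genes summed to 3400 CPM in WT and 3251 CPM in the mutant, and 8 B and plasma cell genes to 780 and 194 CPM. Shares are of cells that passed a CD11c sort, and 98 of the 329 and 7 of the 20 lay close to the margin.

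The name of the mature class rests on few cDC1 genes. In WT, 8 of the 18 listed cDC1 genes were at least 2-fold higher than in mature cells without cDC1 genes and 3 at least 2-fold lower, and the summed list stood at 922 CPM against 913 CPM. In the mutant 4 were at least 2-fold higher and 9 at least 2-fold lower. *Irf8*, a transcription factor of the cDC1 lineage, was at 317 CPM against 99.2 CPM in WT and at 824 CPM against 90.6 CPM in the mutant. The surface marker *Cd24a* was at 31.4 CPM against 8.51 CPM in WT. *Batf3*, the other lineage factor, was not higher, at 326 CPM against 375 CPM in WT. *Itgae* and *Tlr3* were at 1.57 and 1.05 CPM, near those of the other mature cells, and 8 of the 18 genes were at 0 UMIs in the 20 mutant cells. The division owed more to the cDC2 list, of which 14 of 16 genes were at least 2-fold lower in both libraries and whose sum was 252 CPM against 1648 CPM in WT and 363 CPM against 1998 CPM in the mutant. The class is thus one of mature cells low in cDC2 genes with raised *Irf8*.

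Levels of the receptors and other surface proteins set resting cDC1-like cells apart from cDC2-like cells by 10-fold or more. Resting cells were held to a cDC1 score above 0.45, and the other gates left cDC2-like cells at 0.3 or less. In these comparisons with cDC2-like cells, excesses of genes that follow this score were therefore partly set by the gate. *Clec9a* reached 609 CPM (588 to 631) in WT and 453 CPM (439 to 467) in mutant resting cDC1-like cells, against 29.8 and 19.5 CPM in cDC2-like cells, 20.5- and 23.3-fold. *Xcr1* was at 385 and 388 CPM against 3.91 and 3.35 CPM, 98.4- and 116-fold. *Cd36* was at 319 and 219 CPM against 4.03 and 3.08 CPM, 79.2- and 71.0-fold. All 3 were at low levels in cDC2-like cells of both libraries.

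*Cadm1* reached 1435 CPM (1402 to 1468) in WT and 765 CPM (747 to 783) in the mutant, 26.6- and 26.3-fold over cDC2-like cells at 54.1 and 29.0 CPM. *Cd8a* was at 228 and 143 CPM, 10.4- and 10.6-fold over cDC2-like cells. For both genes the fold over cDC2-like cells was alike in the libraries while the level itself was lower in mutant cells of both classes.

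Of the genes for proteins inside the cell, *Naaa*, *Rab7b* and *Clnk* behaved as the receptors did. *Naaa* was at 885 and 659 CPM, 29.1- and 25.2-fold over cDC2-like cells. *Rab7b* was at 342 and 330 CPM, 91.2- and 79.3-fold over them. *Clnk* was at 195 and 111 CPM, and its 286- and 87.2-fold excess rested on 0.681 and 1.27 CPM in cDC2-like cells.

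*Wdfy4* and *Rab43*, both tied to cross-presentation, were shared with cDC2-like cells. *Wdfy4* reached 2937 CPM (2890 to 2985) in WT and 1825 CPM (1798 to 1853) in mutant resting cDC1-like cells, 2.56- and 1.76-fold over cDC2-like cells at 1147 and 1035 CPM. *Rab43* was at 981 and 807 CPM, 2.21- and 1.71-fold over 445 and 471 CPM. In cDC2-like cells poor in ribosomal UMIs, *Wdfy4* stood at 2885 and 2505 CPM. The WT level there was close to that of WT resting cDC1-like cells, which had a higher ribosomal share. Resting cDC1-like cells likewise poor in ribosomal UMIs had more, at 6140 and 4545 CPM.

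**Figure D1:**
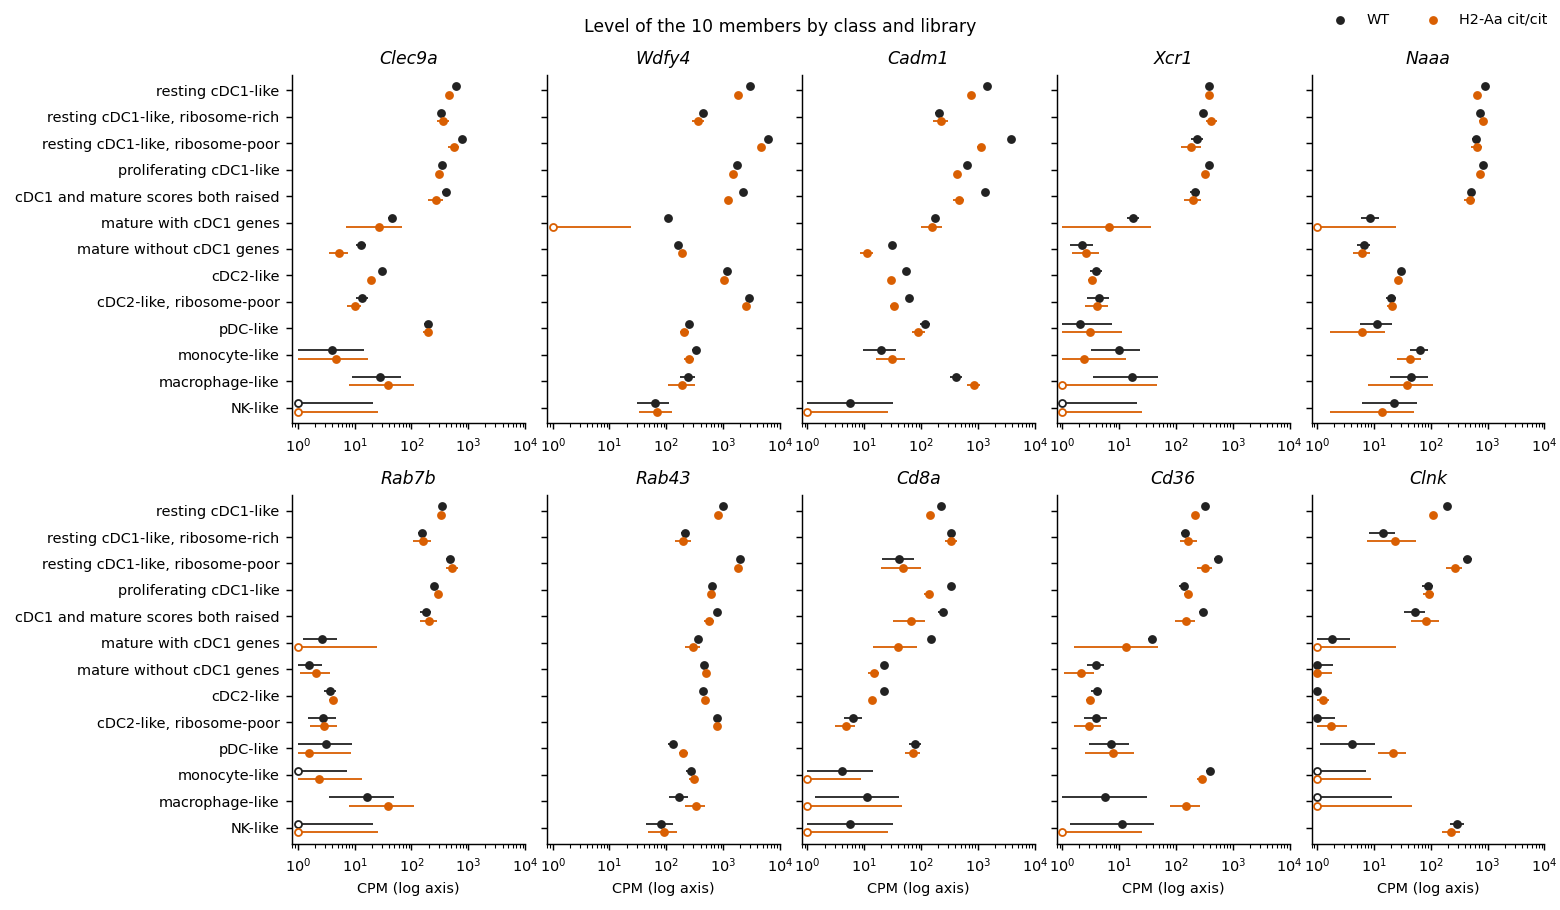
Level of each member in CPM (log axis) in 13 cell classes, WT in black and H2-Aa cit/cit in orange, with 95% counting intervals as lines. Open points mark 0 UMIs, and values under 1 CPM are drawn at 1. Xcr1, Rab7b and Naaa lie to the right in the 5 classes of high cDC1 score and far to the left elsewhere, whereas Rab43 is found in every class and Wdfy4 in every class but the 20 mature H2-Aa cit/cit cells with cDC1 genes.

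Outside conventional DC, several members were also found in other cells, as the plot of levels by class shows. *Clec9a* was at 192 and 191 CPM in plasmacytoid DC-like (pDC-like) cells, where *Cd8a* was at 78.9 and 71.0 CPM. *Cd36* was at 391 and 282 CPM in monocyte-like cells, above its resting cDC1-like level of the same library. *Cadm1* was at 415 and 837 CPM in macrophage-like cells, whose median depth was 949 and 792 UMIs. These levels rest on few cells, 15 of 97 in WT and 11 of 51 in the mutant. Single cells held up to 17 of the 74 WT UMIs and 30 of the 66 mutant UMIs.

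*Clnk* reached 289 CPM in 31 WT and 230 CPM in 29 mutant NK-like cells, above its level in resting cDC1-like cells. *Clec9a*, *Xcr1* and *Rab7b* were at 0 UMIs in NK-like cells of both libraries. Proliferating cDC1-like cells, 52 and 45 in number, kept *Xcr1* at 385 and 322 CPM and *Naaa* at 841 and 727 CPM, but *Cadm1* was 2.27- and 1.78-fold lower than in resting cells.

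The share of cells with a UMI of each member was read after each cell was thinned to 1500 UMIs, since depth differed between classes. The median depth before thinning was 15676 and 15327.5 UMIs in resting cDC1-like cells and 7915.5 and 6742 UMIs in cDC2-like cells. Shares in cDC2-like cells are given for comparison. That class is mixed, and single WT cells of it held up to 64 UMIs of *Cadm1* and 11 of *Clec9a*. The source of the UMIs there was not tested. At 1500 UMIs *Clec9a* was found in 57.1% of WT and 52.3% of mutant resting cDC1-like cells, whereas cDC2-like cells gave 3.49% and 2.20%. *Xcr1* was found in 43.2% and 39.8% against 0.443% and 0.376%. *Cadm1* was found in 70.3% (64.9 to 75.4%) of WT and 48.8% (44.6 to 53.0%) of mutant cells against 4.48% and 2.63%.

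*Wdfy4* and *Rab43* were common in cDC2-like cells, found in 72.3% and 70.1% and in 46.2% and 49.6% of them. The share was higher in WT than in mutant resting cDC1-like cells, with intervals apart, for 5 members: *Wdfy4* (96.1% against 86.5%), *Cadm1*, *Naaa* (70.3% against 57.8%), *Cd8a* (26.5% against 17.5%) and *Clnk* (21.9% against 14.0%). Without thinning the shares in resting cells were 78.9% and 54.5% for *Cd8a*, 69.3% and 54.2% for *Clnk* and at least 84.0% for the other members, and the intervals were apart for 3 members. Neither count was made over all genes, so no share of all genes stands beside them.

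Mature cells with cDC1 genes held far less of 9 of the 10 members than resting cDC1-like cells of their own library. The gate held mature cells to a cDC1 score of at most 0.3 and resting cells to above 0.45. Lower levels of genes that follow this score were therefore partly set by the gate. For mature against resting cells, fell and rose mean lower and higher in the mature class. Descent of one class from the other was not tested. At least 2-fold lower levels in both libraries were found for all but *Cd8a*, and for none was the level 2-fold higher. Of the 3774 genes that reached 50 CPM in a class compared, 24.1% were at least 2-fold lower in mature cells in both libraries and 19.9% at least 2-fold higher. The median log2 ratio was -4.12 for the members and -0.10 for all these genes in WT.

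Of the uptake receptors, *Clec9a* fell from 609 to 44.5 CPM in WT and from 453 to 26.4 CPM in the mutant, where 4 UMIs were left. The log2 ratios were -3.77 and -4.10, and the intervals of both lay below the 2-fold line. *Cd36* fell from 319 to 37.7 CPM in WT and from 219 to 13.2 CPM in the mutant, where 2 UMIs were left, with log2 ratios of -3.08 and -4.05. For both receptors the mature level was low in each library.

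*Xcr1* fell from 385 to 17.5 CPM in WT, a log2 ratio of -4.46, and from 388 to 6.59 CPM in the mutant, which was 1 UMI. *Cadm1* fell from 1435 to 179 CPM and from 765 to 158 CPM, with log2 ratios of -3.01 and -2.27. The *Cadm1* levels of the libraries, apart in resting cells, overlapped in mature cells within the interval of 101 to 235 CPM that 24 UMIs allow.

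*Wdfy4*, at 2937 CPM in resting WT cells, was at 105 CPM in mature WT cells, a log2 ratio of -4.81. In the 20 mature mutant cells it had 0 UMIs among 151735, which, with 0 UMIs set at 3 UMIs, is at least 92.3-fold lower than in resting cells. *Naaa*, *Rab7b* and *Clnk* had the largest WT ratios, with log2 values of -6.68, -7.03 and -6.73, and levels of 8.64, 2.62 and 1.83 CPM in mature cells. In the mutant these 3 were also at 0 UMIs, by the same rule at least 33.3-fold lower for *Naaa*, 16.7-fold for *Rab7b* and 5.59-fold for *Clnk*.

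*Rab43* fell least among the 9, from 981 to 367 CPM and from 807 to 290 CPM, with log2 ratios of -1.42 and -1.48. *Cd8a* was at 228 CPM in resting and 152 CPM in mature WT cells, 1.50-fold lower. In the mutant it was at 143 CPM in resting cells and 39.5 CPM in mature cells, a log2 ratio of -1.86 on 6 UMIs. The 2 ratios of *Cd8a* were not tested against each other.

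**Figure D2:**
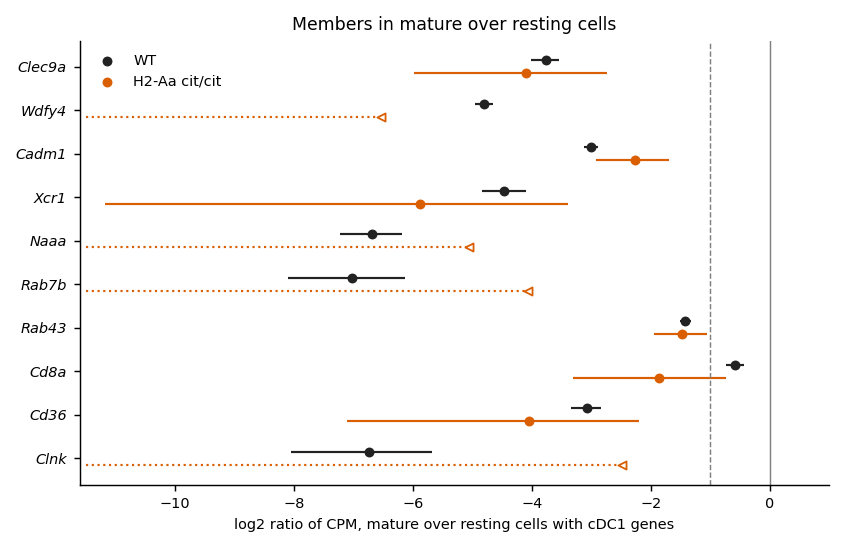
Log2 ratio of CPM in mature over resting cells with cDC1 genes for each member, WT in black and H2-Aa cit/cit in orange, with 95% counting intervals as lines. Open triangles mark the bound at 3 UMIs where mature cells had 0 UMIs, and the dashed line is 2-fold lower. In WT, 9 members lie left of the dashed line and Cd8a lies at -0.58.

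The plot of mature over resting levels also shows how much the 20 mature mutant cells limit that side, since its intervals are wide. Mature cells had a lower ribosomal share, 7.89% at the median in WT against 17.6% in resting cells, and 7.96% against 21.5% in the mutant. Against only the resting cells of 8 to 12% ribosomal UMIs, a comparison added after the data were seen that rests on 30 WT and 6 mutant resting cells, 9 members were again at least 2-fold lower, and the WT log2 ratio was -4.10 for *Cadm1* and -5.32 for *Wdfy4*. Where classes were clusters of cells in place of scored cells, the count was again 9, but the WT ratios of *Cadm1* and *Wdfy4* were -1.60 and -2.69. Neither of these counts was made over all genes.

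What was left of the members in mature cells with cDC1 genes still differed from mature cells without. In WT, *Cd36* was 9.62-fold higher, *Xcr1* 7.84-fold, *Cd8a* 6.76-fold, *Cadm1* 5.89-fold and *Clec9a* 3.43-fold higher than in mature cells without cDC1 genes. In the mutant, *Cadm1* was 14.2-fold higher, at 158 CPM against 11.1 CPM, and *Clec9a* 4.98-fold higher. *Rab43* was lower, at 367 CPM against 452 CPM in WT and 290 CPM against 497 CPM in the mutant (log2 ratio -0.78, -1.24 to -0.35), and *Wdfy4* was at 105 CPM against 161 CPM in WT. For *Naaa*, *Rab7b* and *Clnk* the WT intervals of the log2 ratio included 0, from -0.30 to 1.0, from -0.59 to 2.02 and from -0.80 to 2.46. The 5 members that were higher in this class in WT are all for surface proteins. In the mutant, *Xcr1*, *Cd8a* and *Cd36* had 1, 6 and 2 UMIs in this class. Their intervals of the log2 ratio included 0, from -4.08 to 4.02, from -0.07 to 2.6 and from -0.56 to 4.81. The 2 classes were divided by how far the cDC1 score exceeded the cDC2 score. The share of all genes that were higher was not counted.

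*Wdfy4* and *Naaa* were low in mature cells of either kind. In mature cells without cDC1 genes *Wdfy4* was 7.10- and 5.44-fold lower than in cDC2-like cells, and *Naaa* 4.53- and 4.24-fold lower. *Rab43* was at the same level as in cDC2-like cells there, 1.02- and 1.06-fold.

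A small class had both scores raised, 34 WT and 11 mutant cells, of which 16 and 10 were among the cells with the highest doublet scores. There *Cadm1* was at 1342 and 457 CPM and *Wdfy4* at 2277 and 1234 CPM. *Clnk* was at 53.2 CPM in WT, with a log2 ratio of -1.87 to resting cells, whereas *Cd8a*, *Cd36* and *Cadm1* in WT had intervals that included 0. The part of doublets in these levels was not tested.

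Single cells showed the same split. At 1500 UMIs a resting cDC1-like cell held a mean of 5.30 of the 10 members in WT and 4.52 in the mutant. A mature cell with cDC1 genes held 0.963 and 0.650, against 0.742 and 0.695 in mature cells without. These were less than the 1.34 and 1.31 of cDC2-like cells, in which *Wdfy4* and *Rab43* were common. At least 4 members were found in 85.2% (80.7 to 88.9%) and 73.4% (69.6 to 76.9%) of resting cells and in 2.17% (0.876 to 4.41%) and 0% (up to 16.8%) of mature cells with cDC1 genes.

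Leaving out *Wdfy4* and *Rab43*, at least 2 of the other 8 members were found in 90.7% and 85.5% of resting cells. The same held for 5.57% (3.34 to 8.67%) of WT mature cells with cDC1 genes and for 1 of the 20 in the mutant. It held for 0.453% and 0.197% of mature cells without and for 1.53% and 0.805% of cDC2-like cells.

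**Figure D3:**
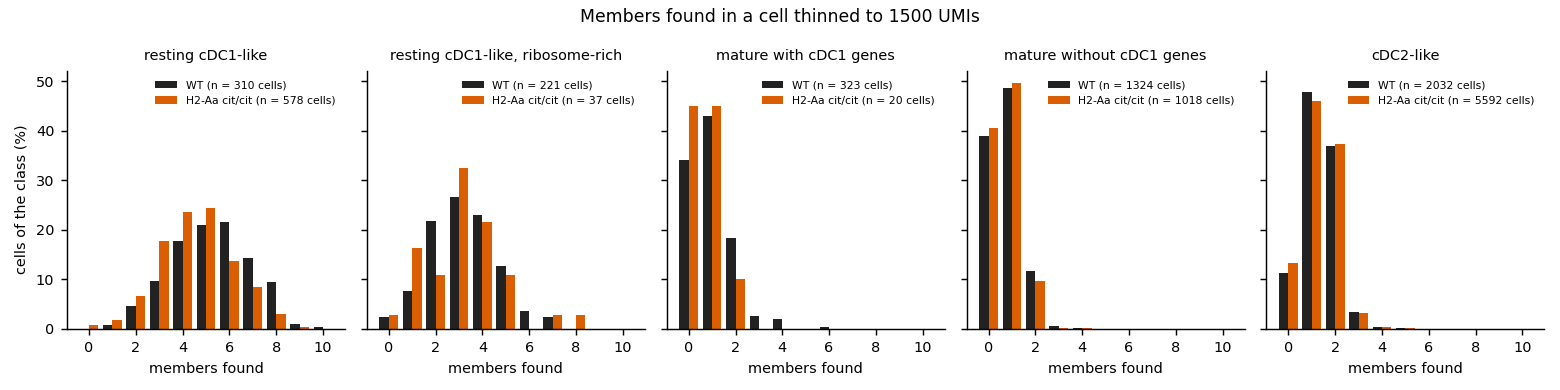
Share of cells (%) by the number of the 10 members found in a cell thinned to 1500 UMIs, in 5 classes, WT in black and H2-Aa cit/cit in orange. Resting cDC1-like cells centre on 5 members in WT and 4 members in the other library, and most cells of the mature and cDC2-like classes hold 2 or fewer.

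Between genotypes, 4 of the 10 members were at least 1.5-fold lower in the mutant than in WT resting cDC1-like cells and 0 were 1.5-fold higher. Of the 3675 genes that reached 50 CPM in either library, 11.8% were at least 1.5-fold lower and 8.95% at least 1.5-fold higher, 432 and 329 genes. The median log2 ratio was -0.11 for all of them and -0.49 for the members. When the libraries were scaled by the median ratio of genes, which removes the shift of -0.11, the split of all genes became 285 lower and 430 higher, and 2 members, *Cadm1* and *Clnk*, were past 1.5-fold.

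The 4 lower members were *Cadm1*, at 1435 CPM in WT and 765 CPM in the mutant (log2 ratio -0.91, -0.96 to -0.86), *Clnk*, at 195 and 111 CPM (-0.82, -0.94 to -0.69), *Wdfy4*, at 2937 and 1825 CPM (-0.69, -0.72 to -0.65), and *Cd8a*, at 228 and 143 CPM (-0.67, -0.79 to -0.55). *Cd36*, *Clec9a*, *Naaa* and *Rab43* had log2 ratios of -0.54, -0.43, -0.42 and -0.28. *Xcr1* and *Rab7b* were level between libraries, with log2 ratios of 0.01 (-0.07 to 0.09) and -0.05 (-0.14 to 0.04). The order of these ratios therefore ran from *Cadm1* to *Xcr1*, with *Wdfy4* and *Cd8a* inside each other's intervals.

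Ribosomal share moved with this result. It was 17.6% at the median in WT and 21.5% in mutant resting cDC1-like cells, and within a library most members fell as it rose. For the bins that follow, resting cells of every ribosomal class were pooled and sorted by each cell's own share. The class limits used the share averaged over neighboring cells. In WT, *Cadm1* was at 3747 CPM in cells of 0 to 8%, 2002 CPM at 12 to 16%, 644 CPM at 20 to 24% and 204 CPM above 30%. *Wdfy4* went from 5811 to 401 CPM and *Clnk* from 379 to 14.2 CPM over the same range. *Cd8a* went the other way, from 83.6 to 334 CPM, and *Xcr1* and *Naaa* were highest in between. *Xcr1* was at 306 CPM, 427 CPM at 12 to 16% and 287 CPM above 30%, and *Naaa* at 685 CPM, 980 CPM at 16 to 20% and 686 CPM above 30%. The cells above 30% were shallower, with a median of 4922 UMIs in WT.

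From 12 to 30% ribosomal share, the *Cadm1* gap was smaller within bins. Its log2 ratio was -0.12 at 12 to 16% (90 WT and 56 mutant cells), -0.26 at 16 to 20%, -0.02 at 20 to 24% and 0.46 at 24 to 30%. In the last of these bins depth differed, with a median of 7426.5 UMIs in 56 WT cells and 15057 UMIs in 172 mutant cells. The log2 ratio of *Wdfy4* was -0.32, -0.48, -0.27 and 0.00 in the same bins. *Cd8a* kept its gap, with -0.79, -0.57, -0.67 and -0.53, and every one of these intervals lay below 0. *Clnk* had -0.30, -0.64, -0.69 and 0.14. *Naaa* had 0.01, -0.33, -0.32 and -0.75 (-0.91 to -0.59), with intervals below 0 in the bins from 16% up. At 8 to 12% the *Cadm1* log2 ratio was -0.09 (-0.31 to 0.12), on 31 WT and 7 mutant cells. Below 8% the *Cadm1* gap was larger, at 3747 CPM in 66 WT cells and 1002 CPM in 46 mutant cells. In the ribosome-poor resting class the *Cadm1* log2 ratio was -1.75 (-2.0 to -1.51), and that of *Cd8a* was 0.22 (-1.39 to 1.72) on 11 WT and 7 mutant UMIs.

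*Xcr1* and *Rab7b* had log2 ratios of 0.05 to 0.34 and 0.08 to 0.21 in the bins from 12 to 30%, and most of their intervals reached 0. Over the resting cDC1-like cells of 12 to 24% as a whole, a restriction added after the data were seen that kept 247 and 410 cells, 2 members were past 1.5-fold, *Cd8a* at -0.67 and *Clnk* at -0.72, and *Cadm1* was at -0.54. The share of all genes past 1.5-fold was not counted under this restriction. The part of ribosomal share in the genotype ratios was not tested further.

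**Figure D4:**
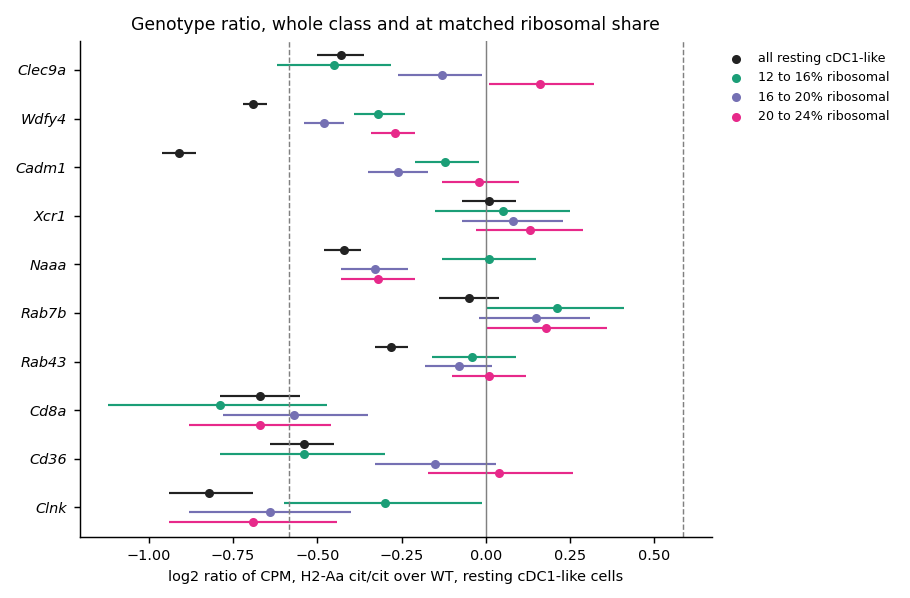
Log2 ratio of CPM, H2-Aa cit/cit over WT, for each member in all resting cDC1-like cells (black) and in bins of 12 to 16%, 16 to 20% and 20 to 24% ribosomal UMIs (colours), with 95% counting intervals as lines and dashed lines at 1.5-fold. The bins pool resting cells of every ribosomal class. The black Cadm1 point at -0.91 lies apart from its coloured points, and the 4 Cd8a points lie together.

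In proliferating cDC1-like cells *Cd8a* was also lower, at 341 CPM in WT and 136 CPM in the mutant, a log2 ratio of -1.32 (-1.64 to -1.01), and *Cadm1* was at 632 and 429 CPM. In ribosome-rich resting cells, however, *Cd8a* was at 337 and 342 CPM and *Cadm1* at 203 and 223 CPM, so these 2 genes did not differ there by more than counting error. *Xcr1* was higher in the mutant there, at 295 and 422 CPM, a log2 ratio of 0.52 (0.16 to 0.86). That class held 2.89% of WT and 0.338% of mutant cells, and at 1500 UMIs its cells held a mean of 3.24 and 3.16 members.

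Markers of cDC2 were also somewhat higher in the mutant resting cDC1-like class, the 16 listed genes summing to 393 CPM in WT and 559 CPM in the mutant with none at 0, and the 10 pDC genes to 369 and 576 CPM with 1 at 0 in each. Among the cells with the highest doublet scores were 21 of the 313 WT and 78 of the 594 mutant resting cDC1-like cells. The number of cells so marked was set by library size, 488 of all 7814 WT and 1063 of all 11525 mutant cells. The 18 cDC1 genes of the gate summed to 6108 and 5561 CPM. Their part in the member ratios was not tested.

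*Wdfy4* also followed the ribosomal share of cells that were neither cDC1 nor mature nor of another named type, which are mostly cDC2-like. It reached 2936 CPM in WT and 2610 CPM in mutant cells under 4%, 1116 and 1184 CPM at 16 to 20%, and 495 and 569 CPM at 24 to 30%. The log2 ratio of the first to the last of these was 2.57 (2.47 to 2.66) in WT and 2.20 (2.14 to 2.25) in the mutant. *Wdfy4* thus varied more with ribosomal share outside cDC1 than between cDC1-like and cDC2-like cells. Cells under 4% had a median depth of 3203 and 2777.5 UMIs, against 8543.5 and 7168 UMIs at 24 to 30%.

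**Figure D5:**
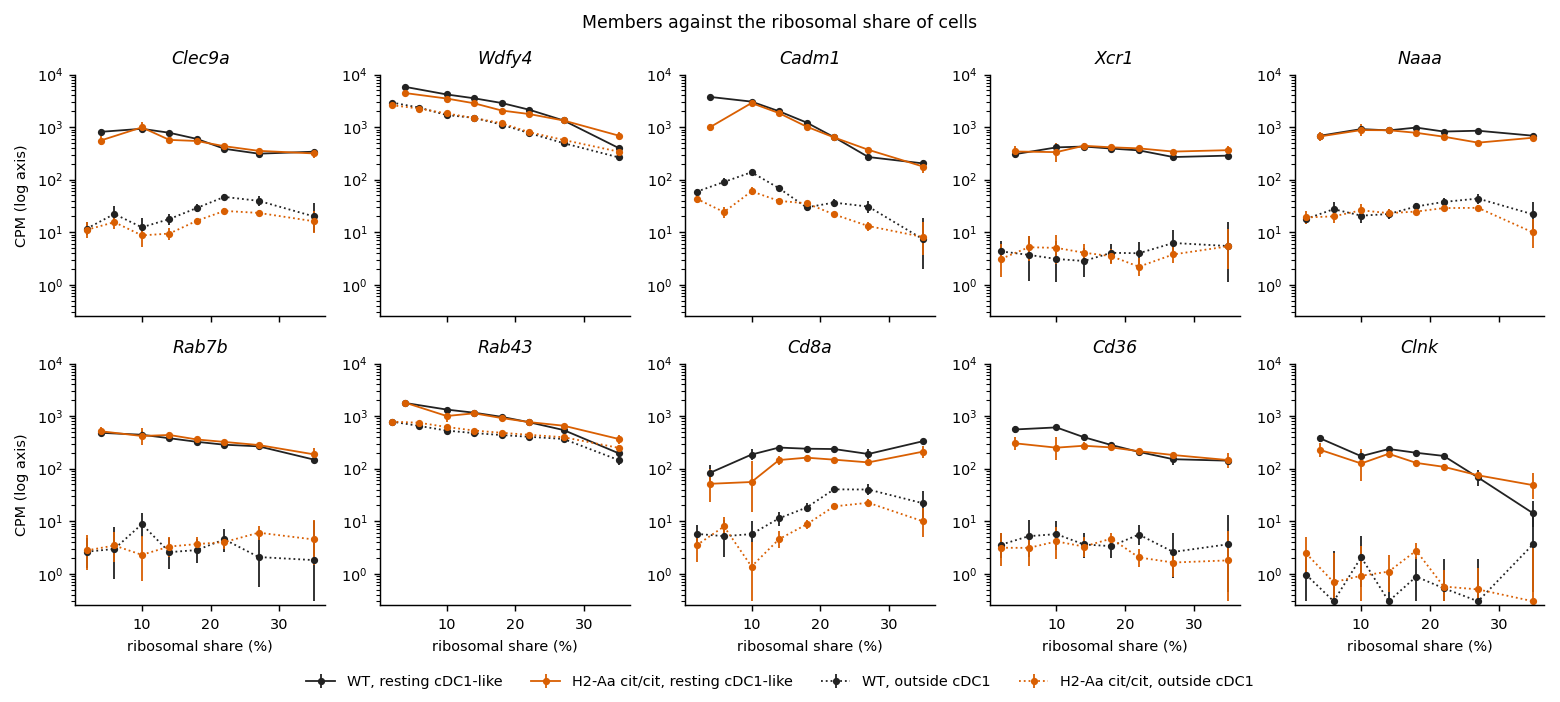
CPM of each member (log axis, values under 0.3 drawn at 0.3) against the share of UMIs from ribosomal protein genes (%, bin centre, the last bin of 30% and above drawn at 35), in resting cDC1-like cells of any ribosomal share (solid) and in cells that are neither cDC1 nor mature nor of another named type (dotted), WT in black and H2-Aa cit/cit in orange, with 95% counting intervals. Wdfy4 and Rab43 fall along both lines. In resting cDC1-like cells Cadm1 falls steeply in WT. In H2-Aa cit/cit it rises to the bin of 8 to 12%, which holds 7 cells, and then falls. Xcr1 and Naaa vary less than Cadm1 in resting cDC1-like cells.

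Over 31 sums of class and library with at least 20 cells, the log2 profile of each member was compared with the mean of the other 9. Pearson's r was 0.960 for *Rab7b*, 0.923 for *Xcr1*, 0.906 for *Naaa* and 0.890 for *Clec9a*, and 0.595 for *Rab43* and 0.562 for *Wdfy4*. Of 7664 genes, the non-members outside the gate lists most like the mean of the 10 were *Dbn1* (0.949), *Plce1* (0.940), *Fgd6* (0.920), *Notch4* (0.919), *Gpr141b* (0.918), *Gusb* (0.912), *Itga8* (0.911) and *Fuca1* (0.910). The cDC1 genes of the gate could therefore not be among them. The sums share 2 libraries and their cells' depth, so these values describe likeness only.

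Other genes of cross-presentation, 25 of 35 listed at 50 CPM or more in resting cells, had 4 higher and 1 lower in the mutant by 1.5-fold. The lower gene was *Apol7c*, which encodes an apolipoprotein L family member of DC phagosomes, at 430 CPM in WT and 36.9 CPM in the mutant, a log2 ratio of -3.54 (-3.71 to -3.37). *Derl1* and *Sec61a1*, of endoplasmic reticulum protein transport, were at 69.3 and 170 CPM and at 61.1 and 129 CPM. In mature over resting cells 5 of 26 rose and 5 fell, among them *Ncf4* and *Rac2* of the NADPH oxidase, with WT log2 ratios of -3.40 and -3.34.

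Of 21 other uptake receptors, 6 reached 50 CPM in resting cells, and 1 was higher and 3 lower in the mutant. In mature over resting cells 1 of 6 rose and 2 fell. *Havcr2*, which encodes TIM-3, was at 572 and 310 CPM in resting cells and at 9.95 CPM and 0 UMIs in mature cells. *Ly75*, which encodes the endocytic receptor DEC-205, went against the members. It was at 164 CPM in resting and 1086 CPM in mature WT cells, and at 107 and 1318 CPM in those of the mutant.

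Of 18 other RAB genes of endosomes, 13 reached 50 CPM in resting cells, with 0 higher and 1 lower (*Rab31*) in the mutant. In mature over resting cells 3 of 12 rose and 0 fell in both libraries, namely *Rab9*, *Rab8b* and *Rab21*, with WT log2 ratios of 3.13, 2.69 and 2.50. *Rab43* and *Rab7b* moved opposite to these 3 genes and in the direction of *Rab39*, a RAB gene of the cross-presentation list, with log2 ratios of -3.07 in WT and -3.48 in the mutant, the latter on 1 UMI.

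Of 11 transcription factors and cytokine receptors tied to cDC1, 8 reached 50 CPM, with 1 higher and 1 lower in mutant resting cells and with 3 that rose and 0 that fell in mature cells. *Zeb2*, a repressor of the cDC1 fate, reached 22.4 CPM in WT and 56.3 CPM in mutant resting cells, and *Flt3*, the receptor for the DC growth factor FLT3L, at 447 and 251 CPM. *Relb* rose from 85.1 to 1351 CPM and from 59.3 to 1180 CPM in mature cells. Of 11 partners of XCR1, CLNK and CD8, 1 was lower and 0 higher in mutant resting cells, and 3 of the 4 that reached 50 CPM fell in mature cells, among them *Grap2* and *Lcp2*, adaptors of the SLP-76 pathway, from 100 to 3.93 CPM and from 98.8 to 15.7 CPM in WT.

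Of 15 other maturation genes, 10 of 12 rose in mature cells in both libraries and 0 fell, with *Il12b*, which encodes IL-12 p40, at 3.81 and 389 CPM in WT and 0.773 and 1160 CPM in the mutant. In resting cells 4 of 8 were lower in the mutant and 0 higher, among them *Cd80* at 97.8 and 37.9 CPM and *Cd83* at 223 and 112 CPM.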

How the data were processed

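Sorted splenic cells in 1 WT and 1 *H2-Aa* cit/cit library, from 3 pooled mice each, were measured by 10x 3′ scRNA-seq. The authors deposited raw UMI counts per gene and called cell, made per the labels with Cell Ranger 5.0.1 on mm10. The gene annotation and the handling of intron reads were not given in the sources used here. All cells were kept, and no limit on mitochondrial UMIs was set (93 and 99 cells exceeded 10%). Marker scores were averaged over 20 nearest neighbors on 30 principal components of 2000 variable genes, without the members (scanpy 1.11.5, scikit-learn 1.9.0). A cell with a cDC1 score above 0.45 and a mature score under 0.4 was resting. One with a mature score above 1.0 and a cDC1 score of at most 0.3 was mature. Mature cells whose cDC1 score exceeded the cDC2 score by more than 0.09 had cDC1 genes. UMIs were summed over a class and scaled to CPM, and ratios were given exact conditional binomial intervals, levels exact Poisson and shares Clopper-Pearson intervals (scipy 1.17.1, checked on simulated data). Intervals and limits from 0 UMIs, computed against 3 UMIs, cover counting error only. Named genes were the members and up to 3 genes of each list with the largest ratio at 50 CPM or more. Also named were the 8 genes outside the gate lists most like the members after 5 CPM was added. Members, lists and thresholds were chosen with earlier results of these data known. Doublets were scored with Scrublet and kept. The 488 and 1063 cells with the highest scores were marked, numbers set in advance from the cell count of each library. Other scalings, gates, filters and depths were tried.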

Additional observations from a re-analysis of the deposited data

Results flagged for a closer look

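*Cd80* and *Cd86* encode the costimulatory ligands of CD28 and were chosen after their values were seen. Their mature over resting ratios went opposite ways in the WT and *H2-Aa* cit/cit (mutant) libraries. The log2 ratio of mature over resting cells with cDC1 genes was -1.08 for *Cd80* in WT and 2.18 in the mutant. That of *Cd86* was -1.69 in WT and 0.52 in the mutant. The difference between the libraries was not tested, since each direction came from 1 library and the mutant side from 20 mature cells.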

How the results depend on the processing

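No value past its fold limit changed sign in the alternatives tried. Median-ratio scaling turned the split of all genes in resting cells from 432 lower and 329 higher to 285 lower and 430 higher. In single ribosomal bins *Cadm1* had a log2 ratio of 0.46 (0.20 to 0.72) at 24 to 30%, against -0.91 in all resting cDC1-like cells, and *Clec9a* one of 0.16 (0.01 to 0.32) at 20 to 24%, against -0.43. The bins pooled resting cells of every ribosomal class, and at 24 to 30% the median depth was 7426.5 UMIs in WT and 15057 UMIs in the mutant. The cause of these differences was not tested. The number of members at least 1.5-fold lower in mutant resting cells, 4 as reported, was 2 with median-ratio scaling and 2 in cells of 12 to 24% ribosomal UMIs. Over 11 alternatives *Clnk* was past 1.5-fold in 11, *Cadm1* and *Cd8a* in 10, *Wdfy4* in 8 and the other 6 members in 0. Of these 11, only median-ratio scaling was also counted over all genes. Without thinning, 3 members had a higher share in WT with intervals apart, against 5 at 1500 UMIs, and this was not counted over all genes. At 3000 UMIs the mean number of members per resting cell was 7.07 in WT and 6.24 in the mutant, and per mature cell 1.49 and 1.05. Without mitochondrial and ribosomal UMIs in the total, the *Wdfy4* log2 ratio between ribosomal bins was 2.18 in WT and 1.82 in the mutant. With clusters as classes, mature cells with cDC1 genes made up 5.85% of the WT library. With a minimum of 10 CPM, 10 listed genes were higher in the mutant against 6 at 50 CPM, and of all genes 950 were lower and 720 higher there, while 2066 were lower and 1142 higher in mature cells. The other 63 values that answer a comparison moved little, as did 217 of 328 values of single members. No paired analysis was possible because there is 1 library per genotype. The depth of the 20 mature mutant cells, 151735 UMIs, sets the bounds of members at 0.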
